A study of Mus musculus with 12 samples.

Results

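Newly made RNA was followed for 10 mouse genes by which macrophages bind and take up particles, lipoproteins and dying cells: the scavenger receptors Marco, Msr1, Cd36, Scarb1 and Stab1, the mannose receptor Mrc1, the TAM receptors Axl and Mertk with their ligand Gas6, and the folate receptor Folr2. They were listed by symbol, and each of the 10 had 1 probe set that named no other gene, among 19937 genes measured. The RNA had been profiled on 12 whole-transcript arrays, 3 in each of 4 groups. MPI-2 cells given LPS (lipopolysaccharide, a bacterial envelope molecule that macrophages sense through Toll-like receptor 4) and mock-treated MPI-2 cells were set beside BMM given LPS and mock-treated BMM. MPI-2, a line of macrophages that renews itself, came from C57BL/6 fetal liver and was grown in RPMI with 10% fetal calf serum (FCS) and GM-CSF. BMM are macrophages differentiated in culture from C57BL/6 bone marrow with M-CSF, in DMEM with 10% FCS. RNA made during 60 min was labelled with 4-thiouridine in all groups, and in the LPS groups that labelling ran from 30 to 90 min after LPS.

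Scavenger receptors recognise polyanionic surfaces such as modified lipoproteins, bacterial cell walls and cell debris, and several bring the bound cargo into the cell without an inflammatory signal of their own. In efferocytosis, the uptake of apoptotic cells, phosphatidylserine on the dying cell is bridged by Gas6 or protein S to the receptor tyrosine kinases Tyro3, Axl and Mertk, which drive engulfment and dampen Toll-like receptor and interferon signalling. Axl and Mertk are known to be used by macrophages in different settings, Mertk in resting or anti-inflammatory cells and Axl in inflamed ones. Marco is known as a receptor of alveolar macrophages, the lung cells that depend on GM-CSF. Stab1, Folr2 and Mrc1 are often used as markers of tissue-resident macrophages.

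The promoters of the genes with the largest LPS responses among those with a RefSeq promoter entry are shown here, because their newly made RNA moved in different directions. Each runs 5′ to 3′ on the gene's own strand, from 250 bases before to 50 after the annotated start, in build GRCm38.p6. Axl lies at chr7:25788684-25788983 (minus strand), Mertk at chr2:128698665-128698964 (plus strand) and Stab1 at chr14:31168592-31168891 (minus strand). Folr2 has a first window at chr7:101857141-101857440 and a second at chr7:101845282-101845581 (both minus strand). Capitals mark letters matched on either strand by a motif that is spelled out after the sequences.
Axl: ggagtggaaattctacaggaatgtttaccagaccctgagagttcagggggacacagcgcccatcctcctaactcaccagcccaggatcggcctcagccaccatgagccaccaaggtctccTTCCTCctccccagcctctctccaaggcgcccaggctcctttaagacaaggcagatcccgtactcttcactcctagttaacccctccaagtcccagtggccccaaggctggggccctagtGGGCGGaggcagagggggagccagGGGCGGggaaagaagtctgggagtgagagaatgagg
Mertk: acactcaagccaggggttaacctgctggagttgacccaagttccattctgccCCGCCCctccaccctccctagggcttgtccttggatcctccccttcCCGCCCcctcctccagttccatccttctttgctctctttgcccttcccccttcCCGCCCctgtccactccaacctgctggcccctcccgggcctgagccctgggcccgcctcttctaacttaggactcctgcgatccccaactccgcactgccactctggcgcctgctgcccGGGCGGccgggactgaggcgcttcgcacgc
Stab1: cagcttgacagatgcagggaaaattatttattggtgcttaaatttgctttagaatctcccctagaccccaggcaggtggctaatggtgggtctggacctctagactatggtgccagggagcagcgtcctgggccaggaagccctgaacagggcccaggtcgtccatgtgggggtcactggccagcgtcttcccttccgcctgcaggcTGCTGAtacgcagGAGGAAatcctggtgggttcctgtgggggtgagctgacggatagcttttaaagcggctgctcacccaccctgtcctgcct
Folr2, first window: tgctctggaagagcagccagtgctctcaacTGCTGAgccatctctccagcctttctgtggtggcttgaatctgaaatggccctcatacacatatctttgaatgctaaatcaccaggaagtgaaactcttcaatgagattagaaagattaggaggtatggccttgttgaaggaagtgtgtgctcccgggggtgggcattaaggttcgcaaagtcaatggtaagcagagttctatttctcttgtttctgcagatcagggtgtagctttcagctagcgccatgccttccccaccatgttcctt
Folr2, second window: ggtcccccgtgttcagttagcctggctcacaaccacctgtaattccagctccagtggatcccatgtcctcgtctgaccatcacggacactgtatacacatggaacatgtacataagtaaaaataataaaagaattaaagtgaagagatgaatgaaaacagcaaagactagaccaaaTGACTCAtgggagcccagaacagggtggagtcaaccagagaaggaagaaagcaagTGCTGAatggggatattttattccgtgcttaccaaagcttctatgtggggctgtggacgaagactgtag

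Of the 10 genes, 8 had a promoter in that table, in 9 windows, and Msr1 and Scarb1 were not matched. The core GAGGAA, bound by the macrophage factor PU.1, was found in 4 of the 8 genes, against 28.3% of 32851 promoters. Counted from the start, it began at position -130 in Axl, on the opposite strand, and at position -30 in Stab1, and it was also present in Marco and Mrc1. The letters TGCTGA, part of the recognition element of Maf factors, were present in Stab1, Folr2 and Cd36 and in 19.5% of all promoters. The site TGANTCA of AP-1 was present in the second Folr2 window alone, at position -74, and in 7.81% of all promoters. The GC box GGGCGG was present in 5 of the 8 genes, in 4 copies in Mertk and in 2 in Axl, and in 35.7% of all promoters. None of the 8 held the interferon-type repeat of GAAA with 2 bases between the copies (3.44% of all promoters), the E-box CACGTG (7.15%), the box TATAAA (13.6%) or an NF-kB site (4.51%). Nor did any hold the nuclear receptor repeats of AGGTCA with 1 or 4 bases between the copies (0.0396% and 0.0152% of all promoters). No searched motif was shared by Axl, Mertk, Stab1 and Folr2. In 6 of the 8 genes every window had a ratio of observed to expected CpG under 0.4, as did 51.3% of all promoters. These letter matches describe the windows and do not show that a factor bound.

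Values are log2 expression values, so a difference of 1 is a doubling, and they rank a gene's own arrays, not one gene against another. A background level of 3.36 was taken from olfactory receptor genes, which macrophages do not use, and 60.3% of all genes lay above it. Within a group the arrays correlated at 0.994 or more in MPI-2 and at 0.975 to 0.989 in BMM. The median gene SD was 0.109 and 0.12 in LPS and mock MPI-2 cells, and 0.204 and 0.176 in LPS and mock BMM. The arrays did not share 1 distribution. The interquartile range over genes was 3.10 to 3.22 in MPI-2 LPS and 3.27 to 3.47 in MPI-2 mock arrays. It was 2.34 to 2.74 in BMM LPS and 2.80 to 2.93 in BMM mock arrays. Its part in differences between the cell types and in differences with LPS was not tested beyond the other scalings. BMM LPS replicate 3 and BMM mock replicate 1 were least like their groups, so calls that change without them are named. All 10 macrophage markers, Csf1r and Adgre1 among them, lay above background in all 4 groups, and 8 of 8 LPS response genes did so in both LPS groups. The mean level over macrophage markers was 8.20 to 8.22 in MPI-2 LPS and 7.89 to 8.0 in MPI-2 mock arrays, against 8.71 to 9.0 in BMM LPS and 9.27 to 9.40 in BMM mock arrays, and its part in differences between the cell types was not tested. Markers of neutrophils, lymphocytes, dendritic, stromal, endothelial, erythroid, liver and mast cells averaged between 2.47 and 3.84 in every group, with 0 to 5 genes of a list above background. Single markers stood higher, with Clec9a of the dendritic list at 5.83 and Pdgfra of the stromal list at 6.13 in MPI-2 mock cells, against 2.89 and 3.39 in BMM mock cells. S100a8 of the neutrophil list averaged 6.58 in MPI-2 LPS cells, against 3.52 in BMM LPS cells, and Csf3r of the same list 2.76 against 5.80. These 4 were chosen after their values were seen, and their part in the results was not tested. In bulk RNA fewer cells of a type and less RNA per cell cannot be told apart. The labels call the replicates biological without naming separate cultures or animals, so p-values measure the spread between these arrays. For each gene the fit takes 1 spread over all 4 groups. A gene's LPS change thus has the same SE in MPI-2 and in BMM, although the BMM arrays varied more. All MPI-2 arrays are of 1 line, and cell source, growth factor and medium differ together between MPI-2 and BMM and cannot be told apart.

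**Figure D1:**
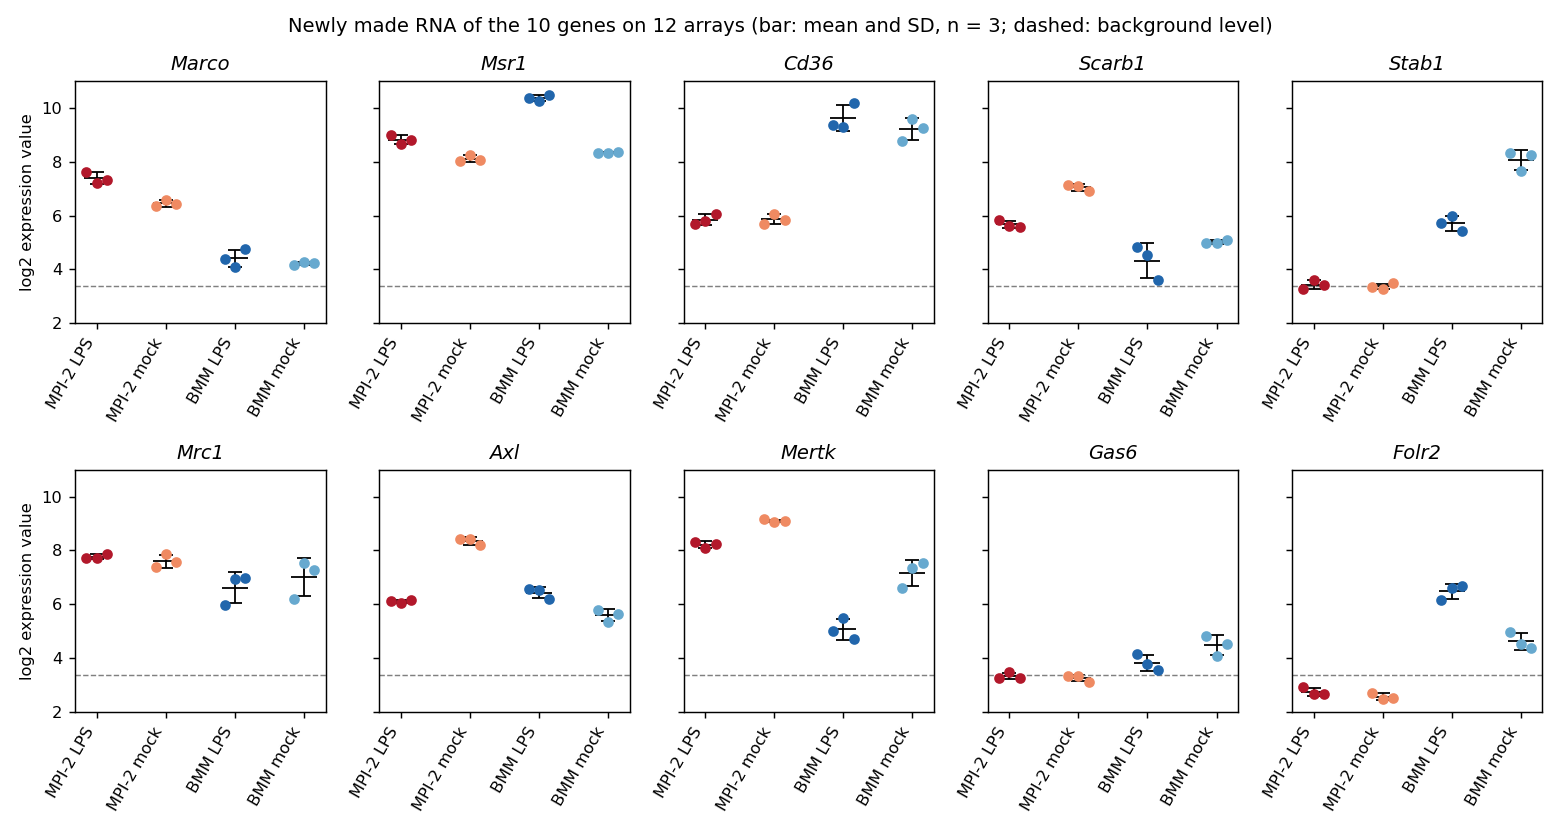
Log2 expression values of newly made RNA of the 10 genes on each of the 12 arrays, with the mean and SD of each group (n = 3) and the background level of 3.36 as a dashed line. Marco and Mertk sat higher in MPI-2 than in BMM with and without LPS, and Stab1, Cd36 and Folr2 lower.

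Of the 10 genes, 5 changed with LPS in MPI-2, with 2 higher and 3 lower, where 14.8% of all genes were called (5.17% higher and 9.58% lower). In BMM 7 changed, with 3 higher and 4 lower, against 25.6% of all genes (10.3% higher and 15.3% lower). With each cell type fitted alone, 5 of the 10 changed in MPI-2 and 5 in BMM. Of all genes, 1854 were then called higher and 3172 lower in MPI-2, against 1321 and 2143 in BMM. The median change over the 10 genes was 0.07 in MPI-2 and -0.11 in BMM, beside 0.02 and 0.04 over all genes. The response itself differed between the cell types for 6 of the 10 genes, with 3 higher and 3 lower in MPI-2, and for 13.3% of all genes (7.08% higher and 6.27% lower). Of these 6, Folr2 was below background and Stab1 at background in MPI-2, so their difference of responses restates the change in BMM, and the call of Marco was lost under 13 alternatives. Between MPI-2 and BMM, 9 of the 10 differed in LPS-treated cells (44.1% of all genes) and 8 of the 10 in mock cells (38.6%). LPS and mock arrays did not overlap for 5 of the 10 genes in MPI-2 (37.1% of all genes) and for 6 in BMM (32%). MPI-2 and BMM arrays did not overlap for all 10 with LPS (55.4% of all genes) and for 9, all but Mrc1, in mock cells (52.4%). Comparisons with LPS and between cell types share arrays, so their values are given side by side for each gene. All differences are LPS minus mock, or MPI-2 minus BMM, with the SE of limma's fit, and calls have a Benjamini-Hochberg adjusted p under 0.05 over all genes.

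Axl and Mertk, the TAM receptors, took different courses. Axl had values of 6.12, 6.04 and 6.15 in MPI-2 LPS arrays, against 8.44, 8.44 and 8.19 in MPI-2 mock arrays. In BMM it had 6.57, 6.54 and 6.19 with LPS, against 5.80, 5.35 and 5.65 in mock arrays. All 3 LPS arrays thus lay below all mock arrays in MPI-2 and above all mock arrays in BMM. Axl fell 4.78-fold with LPS in MPI-2 (log2 difference -2.26 ± 0.14, SE, limma adjusted p = 4.00e-08). It rose 1.78-fold with LPS in BMM (0.83 ± 0.14, limma adjusted p = 0.000395). The responses differed by -3.09 ± 0.20 (limma adjusted p = 8.07e-08), the 80th largest difference of responses in either direction among the 19937 genes. Of these genes, 208 (1.04%) were called in both cell types with opposite signs, and Axl was the 1 member among them. In the order of Axl's group means MPI-2 mock came first, at 8.36, with the other groups between 5.6 and 6.43. With LPS the difference between MPI-2 and BMM was -0.33 and missed the threshold (95% interval -0.64 to -0.02, limma adjusted p = 0.0751). It passed without BMM LPS replicate 3 (-0.45, limma adjusted p = 0.0208), after cyclic loess (-0.81, limma adjusted p = 0.000218) and after a repeated quantile normalization (-0.73, limma adjusted p = 0.000616). In mock cells Axl was 6.77-fold higher in MPI-2 than in BMM (2.76 ± 0.14, limma adjusted p = 5.07e-10).

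Mertk, the receptor most tied to steady clearance of apoptotic cells, was lower with LPS in both cell types. It had 8.33, 8.10 and 8.23 in MPI-2 LPS arrays, against 9.16, 9.07 and 9.08 in MPI-2 mock arrays. BMM arrays gave 5.02, 5.48 and 4.71 with LPS, against 6.59, 7.36 and 7.52 in mock arrays. No LPS array reached a mock array of its cell type. Mertk fell 1.85-fold with LPS in MPI-2 (-0.88 ± 0.22, limma adjusted p = 0.0100) and 4.26-fold in BMM (-2.09 ± 0.22, limma adjusted p = 2.28e-06). The fall was smaller in MPI-2, by 1.21 ± 0.31 on the log2 scale (limma adjusted p = 0.0146). All 4 groups of arrays were apart from their neighbours in the order MPI-2 mock, MPI-2 LPS, BMM mock, BMM LPS. MPI-2 exceeded BMM 8.90-fold with LPS (limma adjusted p = 8.36e-09) and 3.86-fold in mock cells (limma adjusted p = 2.51e-06).

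Gas6, the bridging ligand of the TAM receptors, lay at background in MPI-2 and above it in BMM. It had 3.25, 3.48 and 3.28 in MPI-2 LPS arrays, against 3.31, 3.33 and 3.12 in MPI-2 mock arrays, and 1 of these 6 arrays lay above background. In BMM the values were 4.16, 3.78 and 3.57 with LPS, against 4.82, 4.07 and 4.53 in mock arrays, so the BMM groups overlapped. Gas6 fell by 0.64 ± 0.18 on the log2 scale with LPS in BMM (limma adjusted p = 0.0159). Without BMM mock replicate 1 the difference was -0.47 (limma adjusted p = 0.0703), without BMM mock replicate 3 it was -0.61 (limma adjusted p = 0.0529), and without BMM LPS replicate 3 it was -0.51 (limma adjusted p = 0.0653). With LPS the difference between MPI-2 and BMM of -0.50 ± 0.18 (limma adjusted p = 0.0365) rested on MPI-2 arrays of which 1 of 3 was above background. It lost the threshold without MPI-2 LPS replicate 1 or 3 or BMM LPS replicate 1 or 2 (-0.53 to -0.34) and under 3 other scalings (-0.34 to -0.27). In mock cells Gas6 was at least 2.16-fold lower in MPI-2 than in BMM, taking the MPI-2 arrays at the background level (limma adjusted p = 5.45e-05 for the measured values). The difference of responses missed the threshold (0.72 ± 0.26, limma adjusted p = 0.0853), and it passed without BMM LPS replicate 1 (0.88, limma adjusted p = 0.0332) or BMM mock replicate 2 (0.92, limma adjusted p = 0.0156).

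Marco, a class A scavenger receptor with a collagen-like stem that binds bacteria and inhaled particles, was higher in MPI-2 than in BMM with and without LPS. It had 7.63, 7.21 and 7.33 in MPI-2 LPS arrays, against 6.34, 6.57 and 6.44 in MPI-2 mock arrays. The BMM values were 4.39, 4.08 and 4.74 with LPS, against 4.16, 4.28 and 4.23 in mock arrays. The MPI-2 groups did not overlap, while the mock values in BMM lay within the range of the LPS values. Marco rose 1.92-fold with LPS in MPI-2 (0.94 ± 0.16, limma adjusted p = 0.000651), and its difference in BMM was 0.18 (95% interval -0.16 to 0.52, limma adjusted p = 0.458). The responses differed by 0.76 ± 0.23 (limma adjusted p = 0.0370). That call was lost when any 1 of 8 arrays was left out, all but MPI-2 LPS replicate 2, MPI-2 mock replicate 2, BMM LPS replicate 3 and BMM mock replicate 1, with values of 0.59 to 0.79. It was also lost after cyclic loess, at 0.63 (limma adjusted p = 0.143), and under 4 further settings (0.64 to 0.76). MPI-2 exceeded BMM 7.92-fold with LPS (2.98 ± 0.16, limma adjusted p = 4.56e-10) and 4.68-fold in mock cells (2.23 ± 0.16, limma adjusted p = 1.81e-08).

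Msr1, the class A receptor of acetylated and oxidised low-density lipoprotein, was higher with LPS in both cell types. It had 8.99, 8.68 and 8.81 in MPI-2 LPS arrays, against 8.01, 8.25 and 8.07 in MPI-2 mock arrays. In BMM its values were 10.36, 10.25 and 10.47 with LPS, against 8.34, 8.33 and 8.35 in mock arrays. The LPS arrays lay above the mock arrays in each cell type, and the BMM LPS arrays above all others. Msr1 rose 1.64-fold in MPI-2 (0.71 ± 0.12, limma adjusted p = 0.000669) and 4.05-fold in BMM (2.02 ± 0.12, limma adjusted p = 6.39e-09). The rise was smaller in MPI-2, with a difference of responses of -1.31 ± 0.17 (limma adjusted p = 7.59e-05). With LPS Msr1 was 2.90-fold lower in MPI-2 than in BMM (-1.53 ± 0.12, limma adjusted p = 4.59e-08). In mock cells the difference between MPI-2 and BMM was -0.23 (95% interval -0.49 to 0.03, limma adjusted p = 0.157), although all 3 MPI-2 arrays lay below the BMM arrays. It passed the threshold after cyclic loess (-0.66, limma adjusted p = 0.00102) and after a repeated quantile normalization (-0.54, limma adjusted p = 0.00380).

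Cd36, the class B receptor that takes up oxidised lipoproteins and long-chain fatty acids, separated the cell types and did not pass the test for LPS in either. It had 5.67, 5.80 and 6.07 in MPI-2 LPS arrays, against 5.69, 6.07 and 5.85 in MPI-2 mock arrays. On BMM arrays it read 9.38, 9.29 and 10.18 with LPS, against 8.79, 9.59 and 9.27 in mock arrays. LPS and mock arrays overlapped in both cell types, and every MPI-2 array lay below every BMM array. The LPS difference was -0.03 in MPI-2 (95% interval -0.52 to 0.47, limma adjusted p = 0.978) and 0.40 in BMM (95% interval -0.09 to 0.89, limma adjusted p = 0.233). Cd36 was 13.6-fold lower in MPI-2 than in BMM with LPS (-3.77 ± 0.23, limma adjusted p = 2.12e-09) and 10.2-fold lower in mock cells (-3.34 ± 0.23, limma adjusted p = 1.11e-08).

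Scarb1, the class B receptor that takes cholesterol esters from high-density lipoprotein, ran the other way between the cell types. It had 5.83, 5.61 and 5.57 in MPI-2 LPS arrays, against 7.13, 7.10 and 6.91 in MPI-2 mock arrays. Values in BMM were 4.84, 4.54 and 3.60 with LPS, against 4.98, 4.96 and 5.09 in mock arrays. The LPS arrays lay below the mock arrays in each cell type, in BMM with 1 LPS array far below the other two. Scarb1 fell 2.59-fold with LPS in MPI-2 (-1.37 ± 0.23, limma adjusted p = 0.000467). In BMM it fell 1.61-fold (-0.68 ± 0.23, limma adjusted p = 0.0355). Without BMM LPS replicate 3, the lowest array, the BMM difference was -0.32 (limma adjusted p = 0.113), and leaving out any 1 of the BMM mock arrays also ended the call (-0.71 to -0.65, limma adjusted p from 0.0558 to 0.100), as did cyclic loess (-0.41, limma adjusted p = 0.179). The difference of responses, -0.69 ± 0.32 (limma adjusted p = 0.209), was -1.05 without that array (limma adjusted p = 0.000991). MPI-2 exceeded BMM 2.54-fold with LPS (limma adjusted p = 0.000150) and 4.10-fold in mock cells (limma adjusted p = 2.36e-06).

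Stab1 (stabilin-1), a clearance receptor that binds modified lipoproteins and phosphatidylserine, lay at the background level in MPI-2 and well above it in BMM. It had 3.28, 3.61 and 3.40 in MPI-2 LPS arrays, against 3.34, 3.27 and 3.48 in MPI-2 mock arrays, and 2 LPS arrays and 1 mock array were above background. In BMM the values were 5.71, 6.00 and 5.43 with LPS, against 8.31, 7.65 and 8.25 in mock arrays. The MPI-2 groups overlapped and the BMM groups were far apart. Stab1 fell 5.12-fold with LPS in BMM (-2.36 ± 0.18, limma adjusted p = 9.08e-08). The difference was 0.07 in MPI-2 (95% interval -0.32 to 0.45, limma adjusted p = 0.911), where the background left little room for a fall, and the responses differed by 2.42 ± 0.26 (limma adjusted p = 8.74e-06). The MPI-2 arrays below background were taken at that level (1 of 3 with LPS and 2 of 3 mock arrays). Stab1 was then at least 4.76-fold lower in MPI-2 than in BMM with LPS (limma adjusted p = 4.42e-08 for the measured values). It was at least 25.4-fold lower in mock cells (limma adjusted p = 1.81e-11 for the measured values).

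Mrc1, the mannose receptor of alternatively activated and tissue macrophages, had the largest SE of the 10 genes, with replicate SDs of 0.574 and 0.715 in LPS and mock BMM. It had 7.71, 7.73 and 7.88 in MPI-2 LPS arrays, against 7.37, 7.86 and 7.58 in MPI-2 mock arrays. Its BMM values were 5.95, 6.92 and 6.97 with LPS, against 6.20, 7.54 and 7.29 in mock arrays. Replicate 1 was the lowest array in both BMM groups, and neighbouring group means overlapped throughout the order. The LPS difference was 0.17 ± 0.30 in MPI-2 (limma adjusted p = 0.850) and -0.39 ± 0.30 in BMM (limma adjusted p = 0.390). Without BMM mock replicate 1 the BMM difference was -0.80 and passed the threshold (limma adjusted p = 0.0246). MPI-2 exceeded BMM 2.22-fold with LPS (1.15 ± 0.30, limma adjusted p = 0.00584), a call lost after cyclic loess (0.68, limma adjusted p = 0.0811) and after a repeated quantile normalization (0.77, limma adjusted p = 0.0626). In mock cells the difference was 0.59 ± 0.30 (limma adjusted p = 0.137), and without BMM mock replicate 2 it was 0.86 (limma adjusted p = 0.0420).

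Folr2, the folate receptor beta of tissue-resident macrophages, was below background on all 6 MPI-2 arrays. It had 2.92, 2.67 and 2.65 in MPI-2 LPS arrays, against 2.70, 2.50 and 2.52 in MPI-2 mock arrays. BMM values were 6.17, 6.59 and 6.67 with LPS, against 4.96, 4.53 and 4.37 in mock arrays. All BMM LPS arrays lay above all BMM mock arrays. Folr2 rose 3.62-fold with LPS in BMM (1.85 ± 0.17, limma adjusted p = 5.22e-07). With the MPI-2 arrays taken at the background level, Folr2 was at least 8.64-fold lower in MPI-2 than in BMM with LPS (limma adjusted p = 6.32e-11 for the measured values). It was at least 2.39-fold lower in mock cells (limma adjusted p = 8.13e-08 for the measured values). The responses differed by -1.68 ± 0.24 (limma adjusted p = 0.000141), and the LPS difference measured in MPI-2, 0.18 (limma adjusted p = 0.650), lay below background on both sides.

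**Figure D2:**
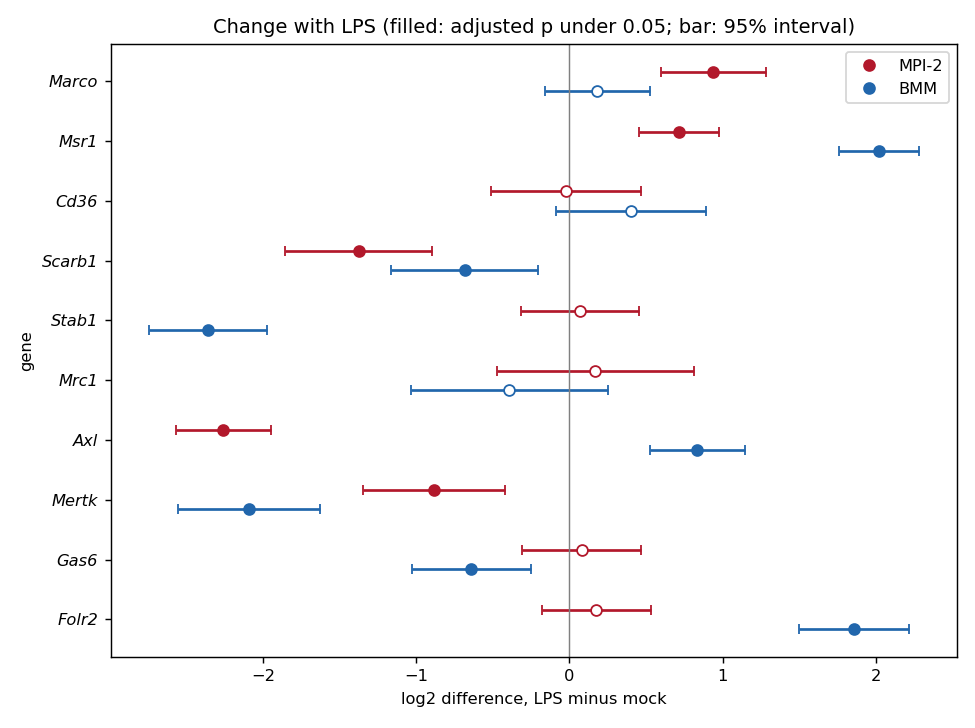
Difference in log2 expression value, LPS minus mock, of each gene in MPI-2 and in BMM, with limma's 95% interval; filled points have an adjusted p under 0.05. Axl lay at -2.26 in MPI-2 and at 0.83 in BMM, and Stab1 and Folr2 changed in BMM, by -2.36 and 1.85, where their MPI-2 values were at or below background.

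Read by role, the genes did not move as a block with LPS. Of the class A receptors both rose in MPI-2 and Msr1 rose in BMM, while Scarb1, of class B, fell in both cell types and Cd36 passed the test in neither. The receptors Mertk and Scarb1 were lower with LPS, and Msr1 higher, in both MPI-2 and BMM. For Scarb1 the call in BMM was lost under several alternatives. Among them were cyclic loess, a repeated quantile normalization (-0.59, limma adjusted p = 0.16) and the BMM arrays fitted alone. With LPS Marco, Scarb1, Mrc1 and Mertk were higher in MPI-2 than in BMM, while Msr1, Cd36, Stab1, Gas6 and Folr2 were lower. In mock cells Marco, Scarb1, Axl and Mertk were higher in MPI-2, while Cd36, Stab1, Gas6 and Folr2 were lower. Of all genes, 22.5% were called higher and 21.6% lower between the cell types with LPS, and 20.6% and 17.9% in mock cells. Over all genes the median difference between MPI-2 and BMM was -0.14 with LPS and -0.10 in mock cells, which cyclic loess moved to -0.01 in both and median centring to 0.02 and 0.08. Cyclic loess and repeated quantile normalization ended the calls of Gas6 and Mrc1 with LPS and added those of Axl with LPS and Msr1 in mock cells, and median centring also ended that of Gas6. The split of all calls between the cell types was 4488 higher and 4312 lower in MPI-2 with LPS, and 4108 and 3579 in mock cells. Under median centring it was 5141 and 2242 with LPS, and 5032 and 1910 in mock cells. The split of the LPS calls also moved with scaling. It was 1031 higher and 1910 lower in MPI-2, and 2053 and 3061 in BMM. Cyclic loess gave 1246 and 1682 in MPI-2, and 2404 and 2471 in BMM. Median centring gave 955 and 1914 in MPI-2, and 2132 and 2911 in BMM.

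**Figure D3:**
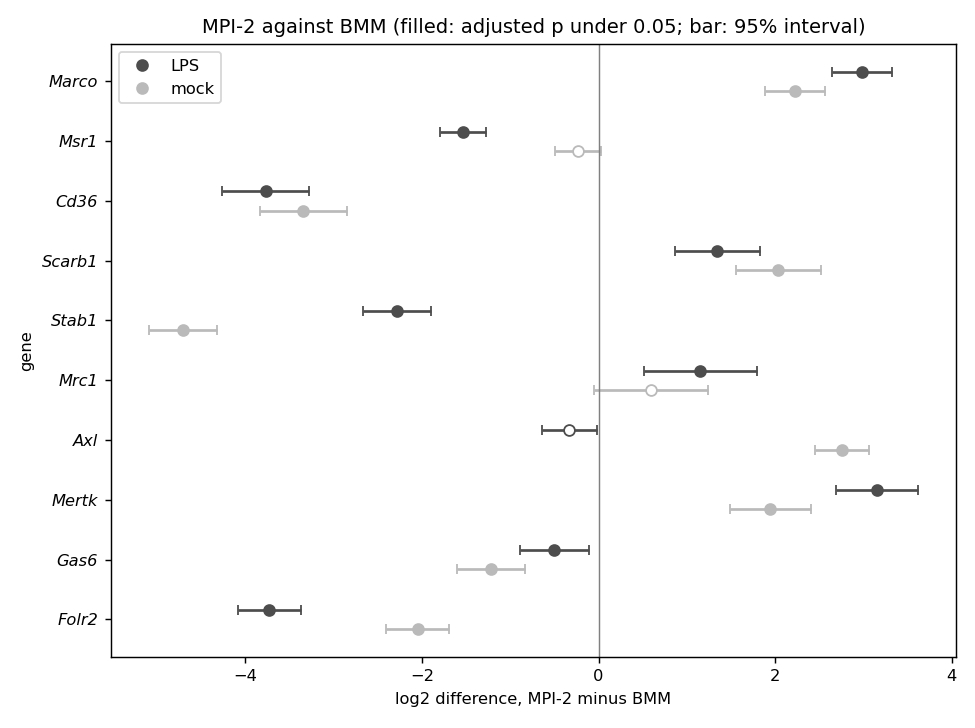
Difference in log2 expression value, MPI-2 minus BMM, of each gene in LPS and in mock cells, with limma's 95% interval; filled points have an adjusted p under 0.05. Marco, Scarb1 and Mertk lay to the right of 0 in both conditions, Cd36, Stab1, Gas6 and Folr2 to the left, and Axl moved to -0.33 with LPS, against 2.76 in mock cells.

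Genes of the same pathways were read from lists chosen for these receptors. Some lists share genes, which count in each. Lrp1, which fell with LPS in both cell types, is on those of efferocytosis, scavenger receptors and lipoprotein handling. Stab2 is on those of efferocytosis and scavenger receptors. Among 26 other efferocytosis receptors and bridging ligands, 2 rose and 6 fell with LPS in MPI-2, and 3 rose and 13 fell in BMM, where 14.8% and 25.6% of all genes were called. Their median change was -0.04 in MPI-2 and -0.34 in BMM, beside 0.02 and 0.04 over all genes. Falling genes in BMM included Thbs1, the thrombospondin that bridges dying cells to Cd36 and integrins (-3.07 ± 0.20), and the lipid-sensing receptors Cd300lb (-3.01 ± 0.30) and Cd300a (-2.42 ± 0.20). In MPI-2 Pros1, the protein S that shares the TAM receptors with Gas6, fell by 1.44 ± 0.14, Cd300a by 1.26 ± 0.20 and Mfge8, a bridge from phosphatidylserine to integrins, by 0.89 ± 0.14. Pros1 and Mfge8 also fell in BMM (-0.46 ± 0.14 and -0.85 ± 0.14). The Pros1 responses differed (-0.97 ± 0.20, limma adjusted p = 0.0030), while the difference for Mfge8 missed the threshold (-0.04, limma adjusted p = 0.954). The integrin chain Itgav rose in both, by 0.55 ± 0.14 in MPI-2 and 1.44 ± 0.14 in BMM, and its response differed between them (-0.89 ± 0.21, limma adjusted p = 0.00776). Havcr2, the phosphatidylserine receptor TIM-3, rose in BMM (1.31 ± 0.28). For Thbs1 the responses differed by 3.22 ± 0.28 (limma adjusted p = 1.14e-06). In mock cells 5 of the 26 were higher in MPI-2 and 14 lower, where 20.6% and 17.9% of all genes were. The median over the 26 was -0.48, beside -0.10 over all genes. C1qb and C1qc, chains of the complement opsonin C1q, were below background on all MPI-2 arrays and at least 98.3-fold and 36.7-fold lower there than in BMM in mock cells. Cd300lf, a receptor for lipids on dying cells, was 11-fold and Havcr2 5.04-fold higher in MPI-2 than in BMM in mock cells. Tyro3, the remaining TAM receptor, had group means of 3.36 and 3.27 in LPS and mock MPI-2 cells and 3.49 and 3.48 in LPS and mock BMM, close to background, and passed no test.

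**Figure D4:**
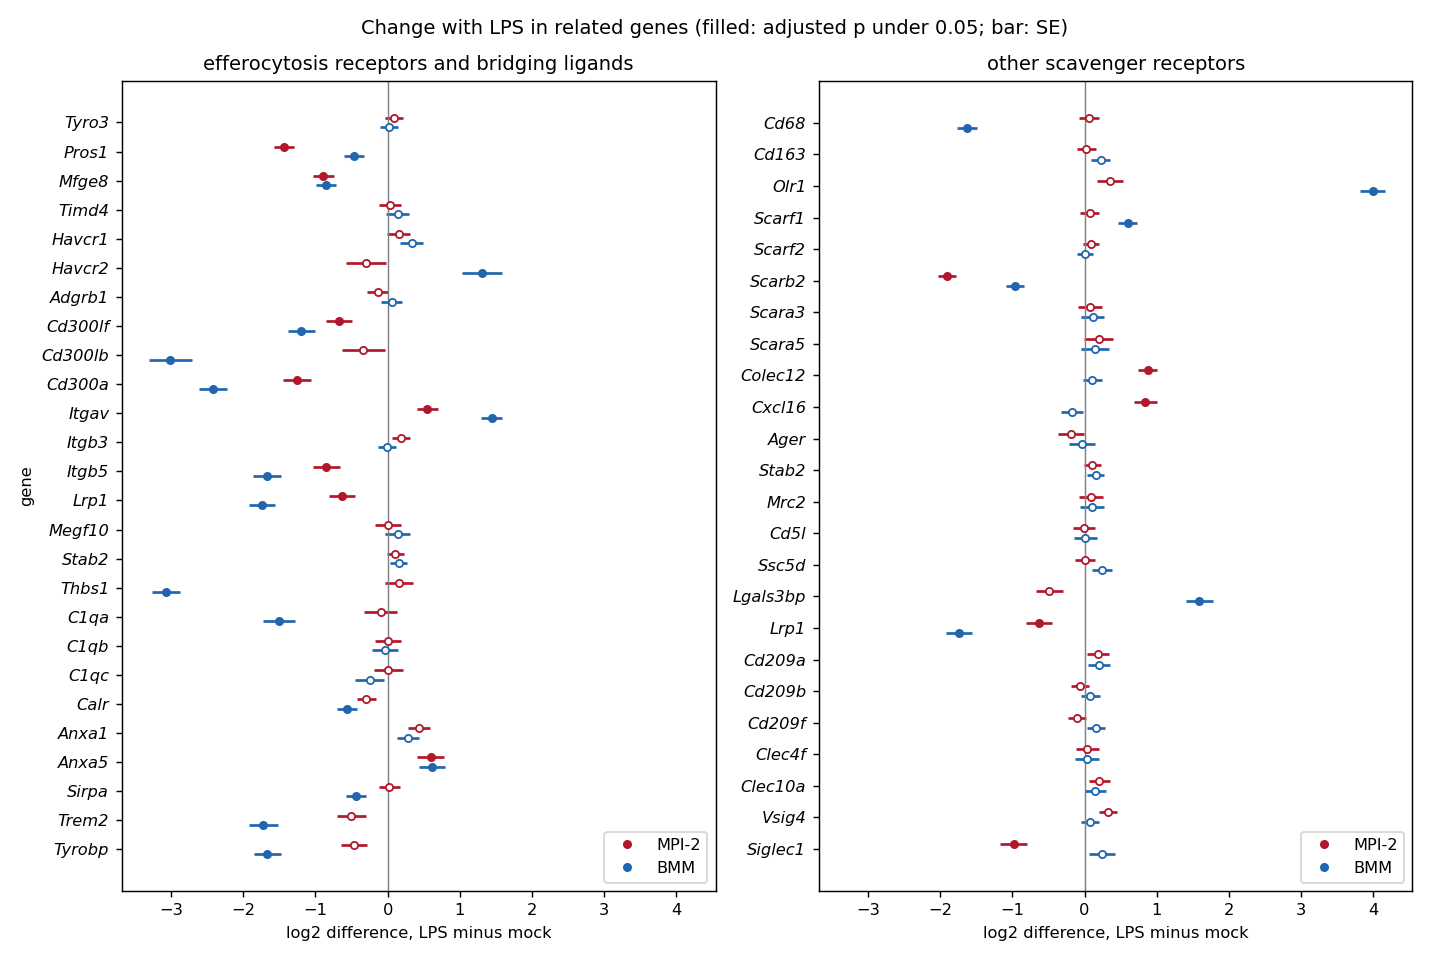
Difference in log2 expression value, LPS minus mock, of other efferocytosis genes (left) and other scavenger receptors (right) in MPI-2 and BMM, with limma's SE; filled points have an adjusted p under 0.05. Thbs1, Cd300lb and Cd300a lay furthest to the left in BMM, Scarb2 furthest to the left in MPI-2 among scavenger receptors, and Olr1 furthest to the right in BMM.

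Of 24 other scavenger receptors, 2 rose and 3 fell with LPS in MPI-2, and 3 rose and 3 fell in BMM, with medians of 0.07 and 0.11 beside 0.02 and 0.04 over all genes. Of all genes 14.8% and 25.6% were called, so the count in BMM was near the share of all genes. Olr1, the oxidised lipoprotein receptor LOX-1, rose 15.9-fold in BMM (3.99 ± 0.18), and its responses differed by -3.64 ± 0.25 (limma adjusted p = 1.15e-07). In MPI-2 Olr1 averaged 11.86 with LPS, against 11.51 in mock cells (0.35 ± 0.18, limma adjusted p = 0.255). The highest value on the arrays was 12.82, and the part of this upper limit in the difference of responses was not tested. Olr1 was 3.47-fold higher in MPI-2 than in BMM with LPS and 43.4-fold higher in mock cells. Scarb2 (LIMP-2), a lysosomal class B relative of Cd36 and Scarb1, fell 3.76-fold in MPI-2 and 1.96-fold in BMM. Cd68 (macrosialin) fell 3.09-fold in BMM with no call in MPI-2, and its responses differed by 1.70 ± 0.20 (limma adjusted p = 2.12e-05). Colec12, a class A relative of Marco and Msr1, rose 1.83-fold in MPI-2 and was 6.30-fold higher in MPI-2 than in BMM in mock cells. Cxcl16, both a chemokine and a receptor for oxidised lipids, was below background on all MPI-2 mock arrays and at least 85.8-fold lower there than in BMM. Between cell types 4 of the 24 were higher and 10 lower in MPI-2 with LPS (median -0.34), and 3 were higher and 8 lower in mock cells (median -0.33), where 44.1% and 38.6% of all genes were called.

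Of 17 genes of TAM signalling and shedding, 3 rose and 3 fell with LPS in MPI-2 and 4 rose and 4 fell in BMM, with medians of -0.20 and 0.11 beside 0.02 and 0.04 over all genes, of which 14.8% and 25.6% were called. Adam17, a protease that sheds the Mertk ectodomain, rose 2.36-fold in MPI-2, and its responses differed by 0.71 ± 0.21. In BMM Adam17 averaged 9.43 with LPS, against 8.90 in mock cells, and in mock cells it was 2.02-fold lower in MPI-2 than in BMM. Adam10, another protease of the list, fell 2.05-fold with LPS in BMM. Socs1 and Socs3, suppressors of cytokine signalling that TAM receptors induce, rose 10.1-fold and 6.02-fold in BMM. Socs3 rose 2.67-fold in MPI-2, and the Socs1 responses differed by -3.69 ± 0.43. Ifnar1 and Ifnar2, the interferon receptor chains with which TAM receptors are known to pair, were 2.96-fold and 2.33-fold lower in MPI-2 than in BMM in mock cells. Among 24 genes of engulfment and phagosome maturation 1 rose and 5 fell in MPI-2, and 2 rose and 7 fell in BMM, with medians of -0.14 and -0.06. The GTPase Rac2 rose 1.52-fold in MPI-2 and 1.55-fold in BMM, and Vav1, an exchange factor for Rac, fell 1.86-fold in MPI-2 and 2.0-fold in BMM. Dnase2a, which digests the DNA of engulfed cells, fell 2.70-fold in BMM, and its responses differed by 1.15 ± 0.23.

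Most of the measured genes that handle lipoprotein cholesterol fell with LPS. Of 18, 2 rose and 10 fell in MPI-2, and 1 rose and 12 fell in BMM, with medians of -0.52 and -1.07 beside 0.02 and 0.04 over all genes, of which 14.8% and 25.6% were called (9.58% and 15.3% lower). Abcg1, a cholesterol exporter to high-density lipoprotein, fell 3.07-fold in MPI-2 and 5.21-fold in BMM. Nceh1, which hydrolyses stored cholesterol esters, fell 7.31-fold in BMM, and Npc1, which moves cholesterol out of lysosomes, fell 4.22-fold. The 2 that rose in MPI-2 were Fabp4, a fatty acid carrier (2.88-fold), and Abca1, also a cholesterol exporter (0.406 ± 0.115, limma adjusted p = 0.0249). In BMM Abca1 averaged 9.705 with LPS, against 10.189 in mock cells. Lipa, the lysosomal lipase, had responses that differed by 2.32 ± 0.19, and Apoe was 15.2-fold lower in MPI-2 than in BMM in mock cells. Of 23 regulators known for the receptors 3 rose and 6 fell in MPI-2, and 4 rose and 9 fell in BMM, with medians of -0.06 and -0.43. Rxra, the partner of LXR and PPAR receptors, fell 2.67-fold in MPI-2 and 2.86-fold in BMM, and Klf4 fell 3.42-fold and 2.92-fold. Tfec, a factor of the MiT family, rose 10.6-fold in BMM and was 11.8-fold higher in MPI-2 than in BMM in mock cells. In mock cells 12 of the 23 were higher in MPI-2 and 2 lower, where 20.6% and 17.9% of all genes were. The lower ones were Maf, below background on all MPI-2 mock arrays and at least 39.5-fold lower, and Stat6, 1.32-fold lower. Bhlhe40 and Bhlhe41, repressors known from alveolar macrophages, were 8.73-fold and 8.68-fold higher in MPI-2. Of 14 genes of folate uptake and use, the surroundings of Folr2, none rose in either cell type, while 2 fell in MPI-2 and 6 in BMM (medians -0.09 and -0.20). Mtr, the methionine synthase, fell 3.23-fold in BMM, and Mthfd1 fell 2.37-fold in MPI-2. In mock cells 7 of the 14 were higher in MPI-2, Shmt1 by 6.52-fold, and the folate transporter Slc46a1, below background on all MPI-2 arrays, was at least 2.33-fold lower.

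The patterns of the 10 genes across the 12 arrays were compared with those of 5447 other genes. Each of the 5447 had a mean above background and group means that spanned at least 1 on the log2 scale. Clone names, predicted genes and microRNAs were left out. The correlations are Pearson r of log2 values whose points fall into 4 groups. High values mostly restate the group means, and they are given as descriptions. Axl was most like Nek6, a mitotic kinase (r = 0.977), and Rab19, a small GTPase (0.976). Nek6 had means of 7.39 and 8.67 in LPS and mock MPI-2 cells, against 7.73 and 7.10 in LPS and mock BMM, the same crossed order as Axl. Mertk was most like Scd2, a fatty acid desaturase (0.995), and Cep120, and Marco like Fst, the activin-binding follistatin, and Nrg4 (0.995 each). Msr1 followed Cxcl9, an interferon-induced chemokine (0.990), and Folr2 followed Csf3r, the G-CSF receptor, and Ifi213 (0.994 each). Csf3r is also on the neutrophil list, of which 4 of 10 genes were above background in BMM LPS and in BMM mock cells, averaging 3.30 to 3.43 and 3.14 to 3.30, and the part of such cells in the Folr2 values was not tested. Stab1 ran with Tspan13 and Gng2 (0.993 each), Scarb1 with Abhd2 (0.990), and Cd36 with Fnbp1 (0.993). The nearest genes were less close for Mrc1 (Map3k2, 0.968) and Gas6 (Cd276, 0.962). Among the 10 genes themselves Mertk and Scarb1 correlated at 0.904, Stab1 and Gas6 at 0.940 and Cd36 and Folr2 at 0.918, while Mertk and Folr2 stood at -0.969.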

How the data were processed

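Per the labels' protocols, 4-thiouridine-labelled RNA was biotinylated, purified and amplified for whole-transcript arrays. Per the submitters' processing notes, the authors deposited values made with RMA and affy (no version is given there). The deposited values are on a log scale, taken as log2 from the method and their range of 1.18 to 12.82. The labels do not say whether all 12 arrays were normalized together. The number of arrays limits the precision.

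Of 34760 probe sets, 21640 named 1 gene, 1321 several and 11799 were unnamed here. Symbols were updated by Entrez identifier (21553 probe sets matched), and the probe set with the highest mean stood for each of 19937 genes. Background was set at the 95th percentile of the means of 1027 olfactory receptor genes. Groups came from the labels. One linear model per gene, with 4 group means and all 12 arrays, was fitted with limma 3.58.1 in R 4.3.3 (8 residual and 6.99 prior degrees of freedom). It gave 5 comparisons, with p-values adjusted by the Benjamini-Hochberg method and a threshold of 0.05. The fit was tested on simulated data. No gene was filtered out, and all 10 genes had a mean above background over the 12 arrays. "At least" folds take arrays below background at the background level, and p-values printed beside them are of the measured values.

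The members and lists were chosen with earlier results of these data known. All 10 members are named. Of each list, up to 3 genes with the largest increase and up to 3 with the largest decrease were eligible among called genes whose arrays did not overlap. Tyro3, Csf1r, Pparg and Nr1h3 were chosen after their values were seen. For likeness, the 2 genes with the highest r were taken. RefSeq promoters are of GRCm38.p6. Some further listed genes are not reported here. Alternatives were other normalizations, array weights, the 2 groups alone, an intensity trend, the replicate block, a filter and left-out arrays.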

Additional observations from a re-analysis of the deposited data

Results flagged for a closer look

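The test of the difference of responses to LPS, MPI-2 minus BMM, marked 6 of the 10 genes, where 13.3% of all genes were called. Axl differed by -3.09, from a fall of 2.26 on the log2 scale in MPI-2 and a difference of 0.83 in BMM, the 1 gene of the 10 with called changes of opposite sign. Stab1 differed by 2.42 and Folr2 by -1.68, and both were at or below background in MPI-2, which limits a response there. Msr1 differed by -1.31, with a smaller rise in MPI-2 (0.71) than in BMM (2.02). Mertk differed by 1.21, with a smaller fall in MPI-2 (-0.88) than in BMM (-2.09). Marco differed by 0.76, a call that was lost under 13 of its alternatives. The groups hold 3 arrays each, too few for a search for single outlying arrays by a test.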

How the results depend on the processing

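Across 50 results (10 genes in 5 comparisons) and 1140 alternative values, 1075 kept their direction and their side of the threshold, 38 lost the threshold, 17 passed it newly and 10 changed sign, and 31 results did none of these. The counts of the 10 genes called stayed within 1.5 times of the main counts. The cause of these changes was not tested. All changes of sign concerned results that did not pass the threshold. With quantile normalization repeated, Cd36 was 0.14 for LPS in MPI-2 and 0.049 for the difference of responses. With both BMM LPS replicate 3 and BMM mock replicate 1 left out, the LPS difference in BMM was -0.019 for Marco and -0.094 for Cd36, and the difference of responses for Cd36 was 0.069. Leaving out single arrays gave -0.134 to 0.074 for Cd36 and -0.024 to 0.143 for Stab1 with LPS in MPI-2. With LPS in BMM, the calls of Scarb1 and Gas6 were lost with array weights (-0.53 and -0.54), with the BMM arrays fitted alone (limma adjusted p = 0.132 and 0.0808) and without that pair of arrays (-0.34 each). Without that pair Mrc1 passed there (-0.98). For the difference of responses, Scarb1 passed with array weights (-0.84) and Mrc1 without that pair (1.14). The labels number the MPI-2 mock arrays 1 to 3 in titles, used here, and 2 to 4 in descriptions. Same-numbered arrays did not all deviate together by either (r of deviations within a cell type from -0.15 to 0.24 by titles and from -0.092 to 0.242 by descriptions), so the numbers were not taken to pair them. With the replicate block by titles the counts of genes called were 5, 7, 6, 9 and 9, and Mrc1 in mock cells passed (0.59, adjusted p = 0.0354). With the replicate block by descriptions, chosen after seeing the data, the counts were 4, 7, 5, 8 and 9. The calls of Mertk with LPS in MPI-2 (-0.81, adjusted p = 0.0577) and of Marco for the difference of responses (0.723) were lost, and Cd36 and Gas6 with LPS in MPI-2 were 0.105 and -0.082. Over all genes, 2941 were called with LPS in MPI-2 in the fit of all arrays, against 5026 with the MPI-2 arrays fitted alone and 5183 with array weights. With LPS in BMM, 2053 were called higher and 3061 lower in the fit of all arrays. With the BMM arrays fitted alone these counts were 1321 and 2143, and with array weights 1696 and 2781. Which cell type had more genes called with LPS thus depended on the fit. Fitting only the groups compared gives no separate value for the difference of responses. Background limits what can be seen of Gas6, Folr2 and Stab1 in MPI-2.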

Other observations

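The following genes were chosen after their values were seen. Pparg, the fatty acid sensor known to raise Cd36, was 5.98-fold higher in MPI-2 than in BMM with LPS (2.58 ± 0.14, limma adjusted p = 6.24e-10) and 4.72-fold higher in mock cells (2.24 ± 0.14, limma adjusted p = 4.29e-09). Cd36 itself was 13.6-fold and 10.2-fold lower in MPI-2 in the same comparisons. Nr1h3, the oxysterol receptor LXR alpha known to raise Mertk and Abcg1, was 2.47-fold higher in MPI-2 in mock cells (limma adjusted p = 0.000543). With LPS Pparg fell by 0.71 ± 0.14 in MPI-2 and by 1.05 ± 0.14 in BMM, and Nr1h3 fell by 0.79 ± 0.25 in MPI-2 (limma adjusted p = 0.0437), with a difference of -0.70 in BMM (limma adjusted p = 0.0510).

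Csf1r, the receptor of M-CSF, fell with LPS by 0.45 ± 0.14 in MPI-2 and by 1.22 ± 0.14 in BMM, and its responses differed by 0.77 ± 0.20 (limma adjusted p = 0.0152). It was 1.93-fold lower in MPI-2 than in BMM in mock cells (limma adjusted p = 4.43e-05).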
